A study of Mus musculus with 6 samples.

Results

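Skeletal muscle genes were followed through 6 mouse libraries: 1 biopsy of healthy skin, biopsies of 2 distinct papillomas, 1 tumour biopsy, and mSCC-20 and mSCC-38, which are cells in culture. The 37 genes were chosen by name, as known genes of striated muscle fibres, and each was found once among the 23726 gene models of the count table. The lesions were induced with DMBA, which mutates DNA, and TPA, a phorbol ester and tumour promoter. Both cultures were isolated from such tumours, and the submitters call mSCC-20 non-tumorigenic and mSCC-38 highly tumorigenic. The sources used here do not give strain, sex, age, body site or biopsy depth, nor any treatment of the healthy skin. They also do not say whether each papilloma came from its own mouse. P-values therefore measure no more than the spread between the 2 papillomas, which may be technical or lie within a mouse.

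Mouse skin rests on the panniculus carnosus, a thin sheet of striated muscle under the dermis and its fat. A striated fibre contracts when thick filaments of myosin slide along thin filaments of actin, and troponin and tropomyosin on the thin filament make this depend on calcium. Calcium is released from the sarcoplasmic reticulum through a receptor that is coupled to a voltage sensor in the membrane, and a pump returns it. Fast and slow fibres carry different members of the myosin, troponin and calcium pump families.

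Total counts ran from 25140489 in papilloma 1 to 42992597 in the tumour. RNA integrity numbers in the labels were 7.5 in skin, 8.2 to 9.1 in the lesions and 9.3 and 9.6 in the cultures. Levels are given in CPM (counts scaled to library size with TMM factors), and RPKM (per kilobase of gene model, as deposited) is used where genes are compared with each other. In skin the 37 genes took 2.49% of all counts, against 0.348% in papilloma 1, 0.247% in papilloma 2, 0.164% in the tumour, 0.0202% in mSCC-20 and 0.0425% in mSCC-38. The culture shares were led by few genes. Tpm2 was at 141 CPM of a sum of 203 in mSCC-20. In mSCC-38, Tpm2 was at 228 CPM and Eno3 at 139 CPM of a sum of 395. Of the 37 members, 25 were higher in mSCC-20 than in mSCC-38. In a whole biopsy, fewer muscle fibres and less RNA per fibre cannot be told apart. Skin, the tumour and each culture have 1 library, so their values carry no replicate error, and intervals given below (95%, exact Clopper-Pearson) cover counting error only.

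Across the lesions most muscle genes were at a low share of their skin level. The median member stood at 19.3% of skin in papilloma 1, 12.3% in papilloma 2 and 7.0% in the tumour. The quartiles of the members lay between 15.6% and 26.4% in papilloma 1, between 10.1% and 16.6% in papilloma 2 and between 5.05% and 9.89% in the tumour. Within a factor of 1 log2 unit of the library's own median were 31, 32 and 27 of the 37 members in papilloma 1, papilloma 2 and the tumour, and 25 of 37 in all 3. In the tumour the members ran from 2.68% of skin for Myoz1 to 171% for Tnni1. The share of all genes that lay as close to their own median was not worked out, so these counts show no uniformity particular to the members. Over the 10377 genes with at least 10 CPM in skin, the median gene was at 103%, 102% and 102% of skin in papilloma 1, papilloma 2 and the tumour. Farther than 1 log2 unit from the members' median in at least 1 lesion were the slow fibre genes Tnni1, Tnnt1 and Myh7 and the myosins Myh1 and Myh4. The others were Tpm2, Des, Hspb7, Mb, Myoz1, Pvalb and Pygm.

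**Figure D1:**
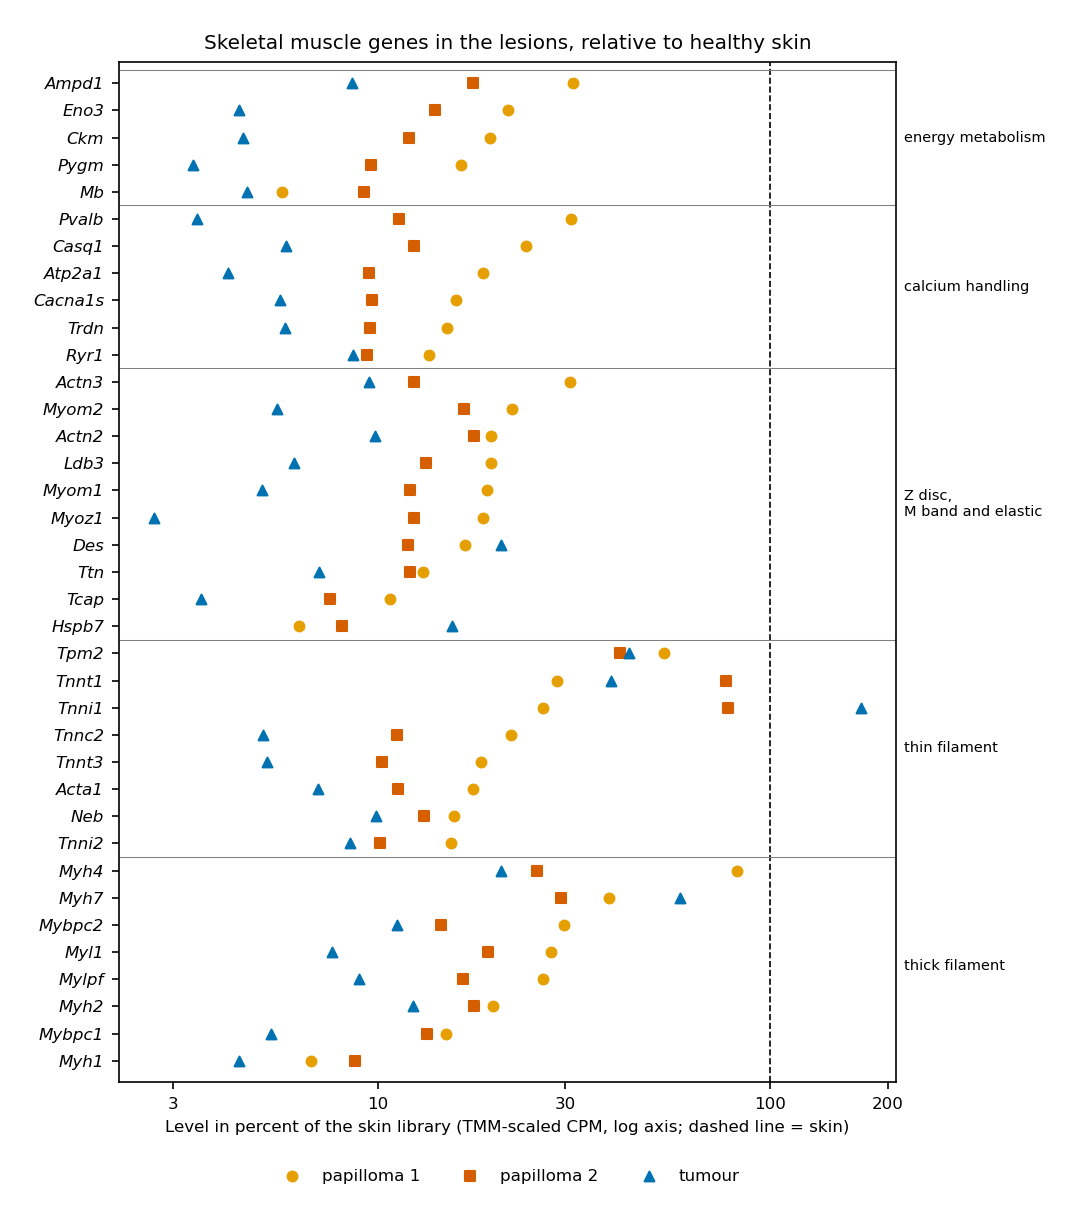
Level of each of the 37 genes in papilloma 1 (circles), papilloma 2 (squares) and the tumour (triangles) as a percent of the skin library, on a log axis, grouped by role. Most genes lie near the library medians of 19.3%, 12.3% and 7.0%, and only Tnni1 in the tumour lies above skin.

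Papilloma was set against healthy skin. The depth and site of the biopsies are not known, and their part in the differences was not tested. By edgeR's quasi-likelihood test 33 of the 36 members tested fell in papilloma and 0 rose, where 14.1% of the 16353 genes tested fell and 12.0% rose. All 36 log2 fold changes were negative, so at an unadjusted p under 0.05 the count of higher members was also 0, as it was with DESeq2. Of all 16353 genes tested, 7113 passed that unadjusted p in either direction. DESeq2's Wald test called 2348 of 15097 genes higher and 1742 lower. The median log2 fold change of the members was -2.68, against -0.06 over all genes tested. The 3 that did not pass were Myh4, Tnni1 and Tnnt1, and Myh7 was too low to be tested. The spread comes from the 2 papillomas alone (1 residual degree of freedom), and skin and tumour are assumed to vary likewise.

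Among the thin filament genes, Acta1, the skeletal muscle actin (chromosome 8, 126415667 to 126418636, minus strand, mm9), was the most expressed member per length in skin, at 3567 RPKM. It had 4227 CPM in skin, 739 and 476 CPM in papillomas 1 and 2, 296 CPM in the tumour, and 2.66 and 8.45 CPM in mSCC-20 and mSCC-38. Both papillomas lay well below skin, at a log2 fold change -2.80 ± 0.36 (SE, edgeR adjusted p = 0.0122). Tnnt3, the fast fibre troponin T that ties the troponin complex to tropomyosin, had 817 CPM in skin and 149, 83.4 and 42.5 CPM in papilloma 1, papilloma 2 and the tumour. Its log2 fold change in papilloma was -2.81 ± 0.37 (edgeR adjusted p = 0.0132). The fast troponin I and C genes Tnni2 and Tnnc2 and the filament ruler gene Neb (nebulin) also fell, so 6 of 8 thin filament genes were called lower.

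Tpm2, a beta tropomyosin gene that smooth muscle and other cells also use, kept more of its skin level than the other called members. It had 718 CPM in skin, 386 and 297 CPM in papillomas 1 and 2, 314 CPM in the tumour, and 141 and 228 CPM in mSCC-20 and mSCC-38. The lesions lay at 41.3% to 53.8% of skin, with the tumour between the papillomas, and the cultures at 19.6% and 31.7%. The fall in papilloma was by 1.07 ± 0.26 in log2 units (edgeR adjusted p = 0.0425). That call was not kept by DESeq2's size factors (adjusted p = 0.0635).

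The troponin genes of slow fibres were low in every library, at no more than 154 counts. Tnni1, slow troponin I, had 106 counts in skin, 12 in papilloma 1, 47 in papilloma 2 and 154 in the tumour, against 23341, 1538, 1341 and 1686 counts of its fast counterpart Tnni2. In CPM, Tnni1 was at 2.13 in skin, 0.563 and 1.66 in the papillomas and 3.65 in the tumour. Papilloma 1 was at 26.4% of skin (95% interval 13.2% to 48.1%) and papilloma 2 at 77.9% (54.1% to 111%), an interval that includes the skin level. The tumour value was 171% of skin (132% to 221%), the only value of a member in a lesion that was above skin. Neither Tnni1 nor Tnnt1, slow troponin T, passed the test in papilloma (log2 fold changes -0.91 ± 0.66 and -0.88 ± 0.70, edgeR adjusted p = 0.339 and 0.377). Tnnt1 had 57 counts in skin and 7, 25 and 19 in papilloma 1, papilloma 2 and the tumour. On the RPKM scale Tnni1 was 0.271% of the 2 troponin I genes in skin, 0.47% in papilloma 1, 2.06% in papilloma 2 and 5.18% in the tumour. The count ratio of Tnni1 to Tnni2 per length was 0.00272 in skin (95% interval 0.00223 to 0.00329) and 0.0547 in the tumour (0.0461 to 0.0645), intervals that do not overlap.

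Of the thick filament genes, 6 of 7 tested fell in papilloma. Mylpf, the regulatory light chain of fast myosin, had 459 CPM in skin, 121 and 75.4 CPM in papillomas 1 and 2, and 40.96 CPM in the tumour (papilloma log2 fold change -2.22 ± 0.31, edgeR adjusted p = 0.0146). The light chain gene Myl1 and the myosin binding protein genes Mybpc1 and Mybpc2 were at 14.9% to 29.8% of skin in papilloma 1 and at 13.3% to 19.1% in papilloma 2. Mybpc2 differed between the papillomas: with both the log2 ratio (0.5 CPM added to each side) was -2.17, without papilloma 1 it was -2.77 and without papilloma 2 it was -1.74.

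The fast myosin heavy chain genes stood at unequal shares of their skin level. Myh1 (type IIx; chromosome 11, 67013616 to 67038077, plus strand), Myh4 (type IIb; 67051531 to 67073948) and Myh2 (type IIa; 66984529 to 67011019, all mm9) lie beside each other and encode the motor proteins of fast fibres. Myh1 had 2013 CPM in skin, 135 and 176 CPM in papillomas 1 and 2, and 88.9 CPM in the tumour. It fell in papilloma by 3.69 ± 0.27 in log2 units (edgeR adjusted p = 0.00554), among the largest falls of the members. Myh4 had 484 CPM in skin, 399 and 123 CPM in papillomas 1 and 2, and 99.7 CPM in the tumour. Papilloma 1 held 82.5% of the skin level of Myh4 and papilloma 2 25.4%, and the gene did not pass (log2 fold change -0.89 ± 0.66, edgeR adjusted p = 0.349). Its log2 ratio to skin (0.5 CPM added) was -0.28 without papilloma 2 and -1.97 without papilloma 1. Myh2 had 150 CPM in skin and 29.3, 26.3 and 18.3 CPM in papilloma 1, papilloma 2 and the tumour. That is 19.6%, 17.6% and 12.2% of skin, between Myh1 and Myh4 on this scale. The slow myosin gene Myh7 had 6 counts in skin, 1 in each papilloma, 3 in the tumour, 6 in mSCC-20 and 0 in mSCC-38, so its percentages are not informative.

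Among the 4 adult myosin heavy chains on the RPKM scale, Myh1 made up 76.1% of the sum in skin, 24.0% in papilloma 1, 54.1% in papilloma 2 and 43.0% in the tumour. Myh4 made up 18.3%, 70.8%, 37.9% and 48.2% in the same order, and Myh2 5.15% to 8.77%. The count ratio of Myh4 to Myh1 per length was 0.241 in skin (95% interval 0.237 to 0.244), 2.95 in papilloma 1 (2.83 to 3.08), 0.70 in papilloma 2 (0.67 to 0.732) and 1.12 in the tumour (1.07 to 1.17). None of these intervals overlap, so the 4 biopsies differed in myosin makeup beyond counting error, and the papillomas differed from each other as well. The replicate spread of skin and tumour is not known. Parts of these genes are alike: 31.2% of the 35-base stretches of the longest Myh1 transcript, 29.7% of Myh2 and 20.7% of Myh4 recur in the other 2 genes (GENCODE M21), and the sources used here do not say how reads of such stretches were counted.

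**Figure D2:**
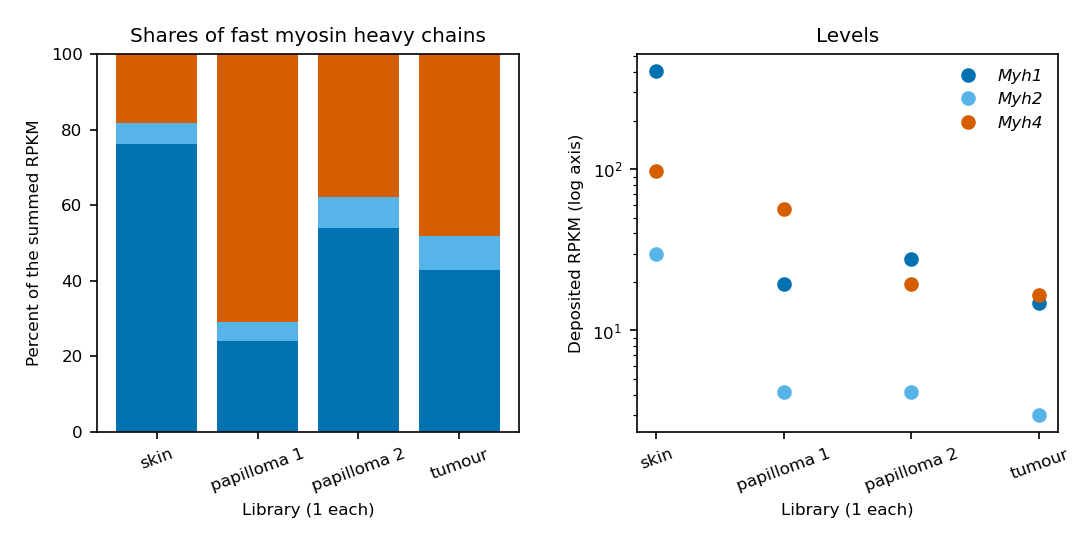
Left, share of Myh1, Myh2 and Myh4 in the summed deposited RPKM of the adult myosin heavy chains in the 4 biopsies (Myh7 takes the rest, too little to be seen). Right, RPKM of each gene on a log axis, with 1 library per point. Myh1 leads in skin with 76.1% and Myh4 in papilloma 1 with 70.8%.

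The 250 bases before the start of these neighbouring myosin genes and of Acta1 are shown. The myosins lie side by side and stood at unequal shares of skin, while Acta1 stayed close to the members' median in each lesion. The sequences are from RefSeq (GRCm38.p6), and capitals mark matches on either strand to the CArG box (bound by serum response factor), the MEF2 box, CAGCTG (an E-box of myogenic factors) and TATAAA.
Myh2, chr11:67170777-67171026, plus strand: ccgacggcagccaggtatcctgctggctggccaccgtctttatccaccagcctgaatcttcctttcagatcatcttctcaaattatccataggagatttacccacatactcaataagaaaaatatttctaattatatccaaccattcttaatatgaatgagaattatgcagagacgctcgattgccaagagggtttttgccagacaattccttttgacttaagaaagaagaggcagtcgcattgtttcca
Myh1, chr11:67199852-67200101, plus strand: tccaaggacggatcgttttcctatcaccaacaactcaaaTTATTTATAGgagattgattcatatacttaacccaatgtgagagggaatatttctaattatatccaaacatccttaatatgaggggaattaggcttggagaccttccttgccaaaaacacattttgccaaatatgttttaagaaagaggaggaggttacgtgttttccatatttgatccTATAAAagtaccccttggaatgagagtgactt
Myh4, chr11:67237562-67237811, plus strand: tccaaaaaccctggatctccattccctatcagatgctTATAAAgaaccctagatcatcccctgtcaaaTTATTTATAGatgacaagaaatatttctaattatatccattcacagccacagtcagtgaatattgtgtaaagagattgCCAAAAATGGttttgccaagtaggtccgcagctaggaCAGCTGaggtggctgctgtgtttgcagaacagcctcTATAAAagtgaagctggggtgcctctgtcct
Acta1, chr8:123894776-123895025, minus strand: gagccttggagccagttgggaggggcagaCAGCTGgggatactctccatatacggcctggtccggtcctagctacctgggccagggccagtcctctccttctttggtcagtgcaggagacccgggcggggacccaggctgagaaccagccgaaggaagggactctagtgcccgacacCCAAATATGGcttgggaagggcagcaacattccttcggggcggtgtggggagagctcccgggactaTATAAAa
The Myh4 window held 1 MEF2 box, 1 CArG box, 1 CAGCTG and 3 TATAAA matches, of which 1 lies inside the MEF2 box. The Myh1 window held 1 MEF2 box and 2 TATAAA matches (1 inside the MEF2 box), and the Myh2 window none of these. The Acta1 window held 1 CArG box, which began 73 bases before the annotated start, 1 CAGCTG and 1 TATAAA. RefSeq windows were at hand for 28 of the 37 members (34 starts). Of those 34 windows 47.1% held CAGCTG, 11.8% the MEF2 box, 14.7% the CArG box, 14.7% TATAAA and 82.4% the general E-box CANNTG, which includes CAGCTG. Of all 32851 windows of this length the shares were 13%, 2.92%, 1.47%, 12.4% and 66.2%. Some windows of a gene overlap, as for Ldb3, Mb and Tnni1, so a site can count more than once. By gene, 14 of 28 members held CAGCTG, 4 the MEF2 box, 4 the CArG box, 5 TATAAA and 24 the general E-box. These are matches of letters, and binding was not measured.

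All 10 genes of the Z disc, the M band and the elastic filament fell in papilloma. Des, encoding the intermediate filament desmin of all muscle types, had 383 CPM in skin, 63.9 and 45.6 CPM in papillomas 1 and 2, and 78.9 CPM in the tumour, and papilloma fell by 2.81 ± 0.25 in log2 units (edgeR adjusted p = 0.00708). Tcap, which anchors titin at the Z disc, had 104 CPM in skin, 11.1 and 7.86 CPM in papillomas 1 and 2, and 3.67 CPM in the tumour. Hspb7, a small heat shock protein gene of striated muscle, had the lowest papilloma mean relative to skin, 7.17%. It was at 80.8 CPM in skin and at 5.07 and 6.51 CPM in papillomas 1 and 2 (log2 fold change -3.79 ± 0.20, edgeR adjusted p = 0.00396). The titin gene Ttn was at 13% and 12.1% of skin in the papillomas and the actinin gene Actn2 at 19.4% and 17.6%, so the papillomas were close for both. Actn3, the actinin of fast fibres, was at 30.8% in papilloma 1 and 12.4% in papilloma 2. Its log2 ratio was -2.20 with both, -2.99 without papilloma 1 and -1.69 without papilloma 2. Actn3 had an edgeR adjusted p of 0.0393, a call not kept by DESeq2's size factors (adjusted p = 0.0663) or its Wald test (adjusted p = 0.12).

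All 6 calcium handling genes fell in papilloma. Atp2a1, the calcium pump of fast fibres, had 2971 CPM in skin, 551 and 281 CPM in papillomas 1 and 2, and 123 CPM in the tumour (papilloma log2 fold change -2.83 ± 0.44, edgeR adjusted p = 0.0174). In papilloma 2 the 6 genes lay between 9.38% and 12.4% of skin, the narrowest range of any role, and in papilloma 1 between 13.5% for the calcium release channel Ryr1 and 31.1% for Pvalb. Pvalb, the calcium buffer parvalbumin of fast fibres, had 267 CPM in skin, 82.9 and 30.1 CPM in papillomas 1 and 2, and 9.19 CPM in the tumour. Its log2 ratio was -2.23 over both, -3.13 for papilloma 2 alone and -1.68 for papilloma 1 alone. Pvalb had an edgeR adjusted p of 0.0472, a call not kept by DESeq2's size factors (adjusted p = 0.0763) or its Wald test (adjusted p = 0.157). The voltage sensor gene Cacna1s, the calcium store gene Casq1 and the triadin gene Trdn fell by 2.46 to 3.02 on the log2 scale, with Casq1 at -2.46, Cacna1s at -2.97 and Trdn at -3.02.

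All 5 genes of energy metabolism fell in papilloma. Ckm, the muscle creatine kinase that buffers ATP, had 854 CPM in skin, 165 and 102 CPM in papillomas 1 and 2, and 38.5 CPM in the tumour (papilloma log2 fold change -2.67 ± 0.33, edgeR adjusted p = 0.0115). Mb, encoding the oxygen store myoglobin, had 116 CPM in skin, 6.57 and 10.7 CPM in papillomas 1 and 2, and 5.35 CPM in the tumour. It is among the few members that were lower in papilloma 1 than in papilloma 2. The glycogen phosphorylase gene Pygm and the AMP deaminase gene Ampd1 were at 16.3% and 31.3% of skin in papilloma 1 and at 9.60% and 17.5% in papilloma 2. Eno3, the muscle enolase, was at 455 CPM in skin and at 97.3, 63.6 and 20.1 CPM in papilloma 1, papilloma 2 and the tumour.

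Most members were higher in papilloma 1 than in papilloma 2. Of the 37 members, 32 were higher in papilloma 1 than in papilloma 2, and the exceptions were Myh1, Mb, Hspb7, Tnnt1 and Tnni1. For the 34 members with at least 10 CPM in skin the median ratio of papilloma 1 to papilloma 2 was 1.53, with a range from 0.617 for Mb to 3.24 for Myh4. Over all 10377 genes at that level the median ratio was 1.02. The 14 fast fibre genes had a median ratio of 1.86 and the 20 genes of that level shared by fibre types 1.43. These are 2 libraries of 1 group, so no test was made. The 12 adipocyte markers had a median of 9.67% of skin in papilloma 1 and 21.7% in papilloma 2, while their summed level, led by Fabp4, was higher in papilloma 1 (99.0% against 66.3%). Hair follicle markers were lower in papilloma 1, at a median of 0.0645% in papilloma 1 and 25.1% in papilloma 2.

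The tumour was also compared with the papillomas, again with biopsy depth and site unknown. In the same fit 11 members fell and 1 rose in the tumour, of 36 tested, where 10.6% of all genes fell and 11.9% rose. The median log2 fold change was -1.22, against -0.02 over all genes tested. The number called lower depended on the method: it was 20 with no filter on low counts and 21 with DESeq2's Wald test. Over all genes, 2067 of 19190 were lower with no filter and 1889 of 15841 with DESeq2's Wald test. At an unadjusted p under 0.05, 24 members were lower in the main fit. Of all 16353 genes in that fit, 6297 passed this p in either direction. By level alone, 31 of 37 members were below both papillomas in the tumour and 4 above both. Among the latter, Myh7 rests on 3 counts against 1 in each papilloma. The share of all genes below or above both papillomas was not worked out.

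The members that fell in the tumour belonged to the Z disc and M band (Actn2, Myoz1, Tcap, Ldb3, Myom1 and Myom2), to energy metabolism (Ckm, Eno3 and Pygm) and to the thick filament (Myl1 and Mybpc1). Myoz1, a Z disc protein that binds calcineurin, had 131 CPM in skin, 24.3 and 16.1 CPM in papillomas 1 and 2, and 3.50 CPM in the tumour. The tumour lay below both papillomas, at a log2 fold change -2.52 ± 0.31 (edgeR adjusted p = 0.00911), and held 2.68% of the skin level, the lowest of the members. Pygm had 580 CPM in skin, 94.3 and 55.6 in the papillomas and 19.5 in the tumour (log2 fold change -1.94 ± 0.39, edgeR adjusted p = 0.0291). Eno3 fell by 2.00 ± 0.33, Myom2, an M band protein gene, by 1.81 ± 0.24 and Ckm by 1.79 ± 0.37 in log2 units (edgeR adjusted p = 0.0183, 0.0106 and 0.0317). The other called members had log2 fold changes from -1.62 for Myl1 to -0.92 for Actn2. The calls of Ckm, Pygm and Myom1 were lost with DESeq2's size factors (adjusted p = 0.0531, 0.0507 and 0.0507) and that of Actn2 with total counts (adjusted p = 0.0524).

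No thin filament or calcium handling gene was called in the tumour by edgeR. The median log2 fold change was -0.56 for thin filament and -1.41 for calcium handling genes. For the Z disc, M band and elastic filament genes it was -1.28, so calcium handling genes without a call did not fall less. At an unadjusted p under 0.05, 3 of 8 and 5 of 6 were lower, and DESeq2's Wald test called 3 and 3 lower. Over all genes, 6297 of 16353 passed that unadjusted p in either direction, and DESeq2's Wald test called 1889 of 15841 lower. Pvalb, at 9.19 CPM in the tumour, had a log2 fold change of -2.62 ± 0.68, with the papillomas far apart (adjusted p = 0.0541 by edgeR). Its log2 ratio of tumour to papilloma (0.5 CPM added) was -2.56 over both, -1.66 without papilloma 1 and -3.11 without papilloma 2. Ryr1 was at 40.0 CPM in the tumour and 43.5 in papilloma 2, so those libraries were close (log2 fold change -0.40 ± 0.28, edgeR adjusted p = 0.338).

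Hspb7 was the member that rose. It was at 12.5 CPM in the tumour against 5.07 and 6.51 in the papillomas, still 15.4% of skin (log2 fold change 1.10 ± 0.20, edgeR adjusted p = 0.0233). Des was also above both papillomas, at 20.6% of skin, and did not pass (0.53 ± 0.26, edgeR adjusted p = 0.20). Tnni1 was at 1.68 ± 0.65 on that scale (edgeR adjusted p = 0.131). Of 12 smooth muscle and pericyte markers, 4 rose and 2 fell in the same comparison, where 11.9% of all genes tested rose and 10.6% fell. Of their log2 fold changes 8 of 12 were negative, and the median was -0.36. Of those named here, Acta2 was at 177 and 170 CPM in the papillomas and 399 in the tumour, and Tagln at 27.8, 35.6 and 78.8 CPM. In the cultured mSCC-38 cells Acta2 was at 250% of skin. The summed markers there were at 81.1% of skin and the median marker at 3.19%. Myh11, the smooth muscle myosin, fell from 31.0 and 25.3 to 9.33 CPM. The part of smooth muscle cells in the Des value was not tested.

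**Figure D3:**
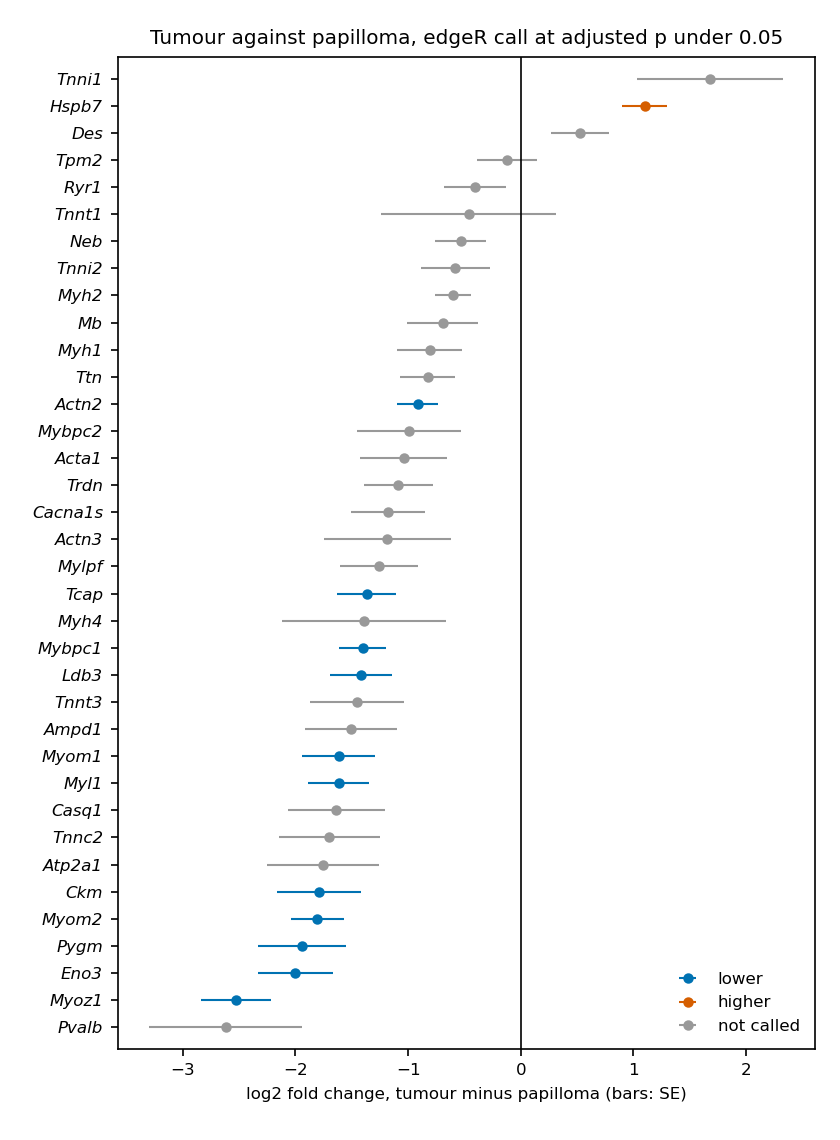
Log2 fold change of the tumour against the papillomas for the 36 members tested, with the SE as bars and colour by edgeR call. Values run from -2.62 for Pvalb to 1.68 for Tnni1. Of the genes right of the zero line, Hspb7 was called, and Des and Tnni1 were not.

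Against skin the tumour is a single library set beside a single library, so no test was made. All members but Tnni1 were below skin in all 3 lesions. At most 25% of the skin level was left for 33 of the 34 members with at least 10 CPM in skin, against 26 in papilloma 1 and 32 in papilloma 2. Of all genes at that skin level, 10.1%, 6.68% and 4.16% were at or below 25% in the tumour, papilloma 1 and papilloma 2.

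In the cultured cells most members were at a very low level. The median member was at 0.17% of skin in mSCC-20 and at 0.0603% in mSCC-38, and 24 and 28 of 37 were below 1 CPM. Hair follicle markers, which had a median of 0.0733% and 0.045% of skin in the same cultures, were similarly low. In papilloma 1, where the median hair marker was at 0.0645% of skin, the median muscle gene was at 19.3%. Mb, Cacna1s and Myh7 had 0 counts in mSCC-38, and a limit of 3 counts, used here in place of the exact interval for a count of 0, is 0.0902 CPM.

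**Figure D4:**
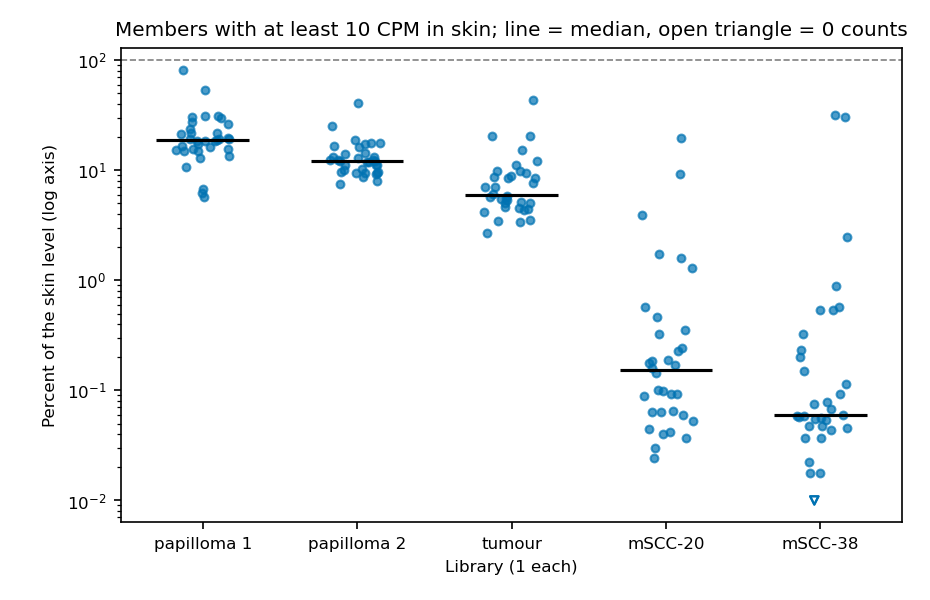
Percent of the skin level, on a log axis, of the 34 members with at least 10 CPM in skin, in each of the other 5 libraries, with the median as a line. The lesions have medians of 18.8%, 12.1% and 5.96%, the cultures 0.152% and 0.0596%, with a few genes far above.

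A few members were well above that level in the cultures. Eno3 was at 7.34 CPM in mSCC-20 and 139 CPM in mSCC-38, which is 30.5% of skin (95% interval 29.6% to 31.5%) and above each lesion. Tnni2 was at 18.6 CPM in mSCC-20 and 4.18 CPM in mSCC-38, or 3.95% and 0.889% of skin. Ryr1 was at 8.09 and 2.65 CPM, and Ampd1 at 3.96 and 1.05 CPM in mSCC-20 and mSCC-38. Each culture is 1 library, so none of these differences has a replicate check.

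Other genes known from skeletal muscle were given by a list of 66, of which 64 were in the table and tested. In papilloma 55 fell and 2 rose, where 14.1% of all genes tested fell and 12.0% rose. The list had a median log2 fold change of -2.61, close to the members' -2.68. Among the genes highest per length in skin, Tpm1 was at 1040 CPM in skin and 292 and 246 in the papillomas, the LIM protein gene Fhl1 at 816 and at 121 and 157, and Cox8b, a muscle subunit of cytochrome oxidase, at 43.2 and at 5.77 and 5.13 CPM. The 2 that rose were Tpm3 and Casq2 (log2 fold changes 0.81 and 0.87, edgeR adjusted p = 0.0282 and 0.0490), and both were also present in the cultures, at 79.0 and 14.6 CPM in mSCC-20.

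In the tumour, 17 genes of this list fell and 4 rose against papilloma, with a median log2 fold change of -0.70. Over all genes tested 10.6% fell and 11.9% rose. The share of the list that rose, 4 of 64, was thus below that of all genes. The 4 that rose were Xirp2, Xirp1, Ankrd23 and Fbxo32. Xirp2 and Xirp1 encode actin-binding Xin repeat proteins of striated muscle, Ankrd23 a titin-binding ankyrin repeat protein, and Fbxo32 the ubiquitin ligase subunit atrogin-1, known for its induction in muscle atrophy. Xirp2 had 292 CPM in skin, 42.8 and 38.6 in the papillomas and 89.7 in the tumour (log2 fold change 1.14, edgeR adjusted p = 0.0153). Ankrd23 had 30.7 CPM in skin, 8.45 and 6.62 in the papillomas and 17.9 in the tumour (1.25, edgeR adjusted p = 0.0226). Fbxo32 had 95.6 CPM in skin, 32.3 and 29.98 in the papillomas and 81.8 in the tumour (1.39, edgeR adjusted p = 0.00646), but it was also at 32.5 CPM in mSCC-38. Xirp1 had 34.7 CPM in skin, 3.94 and 3.12 in the papillomas and 7.72 in the tumour (1.13, edgeR adjusted p = 0.0353). Xirp1 and Xirp2 were below 1 CPM in both cultures.

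Of 22 genes of muscle progenitors, regeneration and the nerve-muscle synapse, 21 were in the table and 18 were tested. In papilloma 7 fell and 0 rose (11 and 0 unadjusted at p under 0.05, DESeq2 5 and 0), and in the tumour 0 fell and 2 rose against papilloma (2 and 3 unadjusted, 0 and 1 by DESeq2). Over all genes tested 14.1% fell and 12.0% rose in papilloma. At an unadjusted p under 0.05, 7113 of 16353 genes passed in papilloma against skin and 6297 in the tumour against papilloma, in either direction. In the tumour the share called higher, 2 of 18, was near the 11.9% of all genes that rose. The transcription factor gene Mef2c had 104 CPM in skin, 26.9 and 24.9 in the papillomas and 21.0 in the tumour. Myf6 and Vgll2, factors of mature muscle, were at 4.77 and 5.58 CPM in skin and at most 1.64 CPM in any lesion. The 2 that rose in the tumour were Ncam1, a cell adhesion gene that nerve and other cells also use, and Myl4, an embryonic light chain. Ncam1 had 17.8 CPM in skin, 10.1 and 8.96 in the papillomas, 24.3 in the tumour and 62.4 in mSCC-38. Myl4 had 1.45 CPM in skin, 0.939 and 0.531 in the papillomas and 3.05 in the tumour (edgeR adjusted p = 0.0490). The satellite cell gene Pax7 and the early factor Myf5 were below 0.2 CPM in every library.

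Of 14 slow fibre and cardiac genes, 9 were tested, and 4 rose and 0 fell in papilloma (5 and 1 unadjusted at p under 0.05, DESeq2 4 and 0). Over all genes tested 12.0% rose and 14.1% fell, and 7113 of 16353 passed an unadjusted p under 0.05 in either direction. Atp2a2, the calcium pump of slow muscle and of most other cells, had 367 CPM in skin, 1170 and 1013 in the papillomas, 887 in the tumour and 646 and 778 in the cultures. Tnnt2, the cardiac troponin T gene, had 4.55 CPM in skin, 18.03 and 13.2 in the papillomas, 42.9 in the tumour and 20.4 and 22.2 in the cultures. Myl7 and Myh7b were the others that rose, with 4.91 and 1.53 CPM in mSCC-20 and 2.29 and 1.68 CPM in mSCC-38. The slow myosin light chain genes Myl2 and Myl3 had at most 0.0947 CPM in any library.

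Markers of other cells of the lower skin did not all move with the members. Over all genes tested 14.1% fell and 12.0% rose in papilloma, so 1 or 2 calls in a list of 10 or 12 are near that share. At an unadjusted p under 0.05, 7113 of 16353 genes passed in either direction. Of 12 adipocyte markers 7 fell and 0 rose in papilloma, with a median log2 fold change of -2.80, close to the members' -2.68. The median adipocyte marker was at 9.67%, 21.7% and 12.2% of skin in papilloma 1, papilloma 2 and the tumour. Their summed level was at 99.0%, 66.3% and 57.5% in the same order, led by Fabp4, which was itself at 359%, 173% and 213% of skin. Of 12 smooth muscle and pericyte markers 5 fell and 1 rose, with sums at 82.6%, 74.9% and 96.4% of skin. Endothelial markers had 2 of 10 lower and 0 higher (2 and 0 unadjusted, 2 and 0 by DESeq2), with sums at 98.6%, 86.0% and 84.6%. Fibroblast markers had 3 of 10 lower and 1 higher (3 and 3 unadjusted, 3 and 4 by DESeq2), with sums at 154%, 128% and 148% of skin. Of 9 basal keratinocyte markers 5 rose and 1 fell, with sums at 525%, 396% and 474%. Hair follicle markers, of which 20 of 21 were in the table, had 0 calls by edgeR or DESeq2 and 1 lower at an unadjusted p under 0.05, with sums at 0.382%, 28.2% and 0.689%. The part of these cells in the levels of the members was not tested.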

How the data were processed

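RNA of 6 libraries was taken from 1 table. The authors deposited raw counts and RPKM values per gene model (per the file headers), with positions and lengths; reads had been assigned to mm9, per the submitters' processing notes, and aligner, counter and strandedness: not given in the sources used here. The deposited RPKM match the counts divided by length and by 99.2% to 99.6% of the summed counts. Members, lists and tests were chosen with earlier results of these data known. CPM were scaled with TMM factors (1.20 for skin, 0.847 and 0.942 for the papillomas, 0.983 for the tumour). The 4 biopsies were fitted together with edgeR 4.0.16 (limma 3.58.1, R 4.3.3; TMM, filterByExpr by group, 16353 genes, common dispersion 0.0773, quasi-likelihood test, Benjamini-Hochberg adjusted p under 0.05). The SE was worked back as the log2 fold change over the root of F. The step was tested on simulated data. DESeq2 1.42.0, other scalings, no filter and a fit of all 6 libraries were tried. Named genes were the 2 highest by skin RPKM per role, the extremes of percent of skin, and members called unlike most; list genes the 3 highest in skin RPKM and those called against the members. Other genes named were chosen after their values were seen.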

Additional observations from a re-analysis of the deposited data

Results flagged for a closer look

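Tnni1, the slow fibre troponin I gene, was below the skin value in both papillomas and above it in the tumour: it was at 2.13 CPM in skin, at 0.563 and 1.66 CPM in the papillomas and at 3.65 CPM in the tumour. The counting interval of papilloma 2, 54.1% to 111% of skin, includes the skin level. The log2 fold change of the tumour against papilloma was 1.68 and did not pass (edgeR adjusted p = 0.131), and skin and tumour are single libraries.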

How the results depend on the processing

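The 33 members called lower in papilloma than in skin were 30 to 33 under 5 other settings (DESeq2's size factors, total counts, DESeq2's Wald test, no filter, all 6 libraries), and the count of higher members was 0 in each. The 11 called lower in the tumour than in papilloma became 21 with DESeq2's Wald test and 20 with no filter, and ranged from 8 to 16 with the other 3, and the cause was not tested. The 1 called higher stayed 1 in each. The log2 fold change of Tpm2, tumour against papilloma, turned from -0.12 to 0.025 with total counts (adjusted p = 0.938). Total counts moved the median log2 fold change of all genes from -0.06 to -0.48 in papilloma against skin, and the calls over all genes from 1959 higher and 2298 lower to 1015 and 3484. The median percent of skin over the members was 13.7% in papilloma 1 with total counts. In the tumour it was 6.77% with DESeq2's size factors, 5.75% with total counts, 6.11% without Des and Tpm2 and 5.96% for members with at least 10 CPM in skin. In mSCC-20 it was 0.154%, 0.14%, 0.161% and 0.152% in the same order, and in mSCC-38 0.0564% with DESeq2's size factors and 0.0541% with total counts. Leaving out 1 papilloma leaves no residual degree of freedom, so only values were taken: the median log2 ratio over the members (0.5 CPM added) ran from -2.99 to -2.37 for papilloma against skin and from -1.47 to -0.87 for tumour against papilloma, and 0 of the called members changed sign. No paired analysis was possible because only papilloma has more than 1 library. Counting error is small for most members but limits Tnnt1, Tnni1 and Myh7.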

Other observations

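Of 10 nerve and Schwann cell markers, 7 fell and 1 rose in papilloma against skin (edgeR), and 2 fell and 2 rose in the tumour against papilloma. Their median log2 fold changes were -2.10 and -0.52. Over all genes tested 14.1% fell and 12.0% rose in papilloma, and 10.6% fell and 11.9% rose in the tumour. Mal, a membrane protein gene of myelin and of epithelia, rose in both comparisons, from 13.3 CPM in skin to 123 and 56.3 in the papillomas and 960.5 in the tumour, and was at 197 CPM in mSCC-20.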
